A study of Mus musculus with 4 samples.

Results

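Glycolysis, the fates of pyruvate and the pentose phosphate pathway were followed through 40 genes in 4 RNA sequencing libraries of mouse embryonic stem cells. The genes were chosen by symbol, from glucose transporters to transaldolase, and all 40 were found among the 25170 genes of each deposited table. The wild-type library is labelled E14, a mouse embryonic stem cell line, and all cells were grown in serum with LIF (a cytokine that keeps stem cells undifferentiated) on gelatin without a named feeder layer. There were 4 groups with 1 library each. WT was wild type and untreated, SO was wild type given SO, Ldha_KO lacked Ldha, and Ldhb_KO lacked Ldhb. SO is an inhibitor in the series text. The labels do not spell it out. The sources used here give neither its dose and duration nor the number of clones behind each knockout. The series asks how lactate dehydrogenase, lactylation of Hdac1 and the 2-cell state are related.

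Glycolysis splits 1 glucose into a pair of pyruvates. Hexokinase traps the sugar, phosphofructokinase commits it, aldolase cuts it, and the lower steps make ATP and NADH. Lactate dehydrogenase, built from the Ldha and Ldhb subunits, turns pyruvate and NADH into lactate and NAD+, which the lower steps need. Pyruvate can instead enter mitochondria, where pyruvate dehydrogenase makes acetyl-CoA and pyruvate carboxylase makes oxaloacetate, while the pentose phosphate pathway draws off glucose 6-phosphate for NADPH and ribose. Mouse embryonic stem cells are known for high glycolytic flux, and many glycolytic genes are targets of the hypoxia-inducible factors.

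Levels were read, from the values alone, as FPKM, fragments scaled by transcript length and library depth. On that reading they can be compared between genes, except where much of a transcript's sequence recurs in other genes. Differences between libraries are of log2(FPKM + 1), and a gene was called higher or lower at a difference of 1 or more in size. This 2-fold rule is 2-fold in FPKM + 1. A gene at low level can thus pass 2-fold in FPKM without a call, as Pdk4 in SO at 2.92-fold. With 1 library per group there is no replicate error, no test and no p-value, and each difference compares libraries, not conditions. The 3 comparisons with WT share the WT library. In bulk RNA, fewer cells that express a gene and less RNA per cell cannot be told apart.

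The libraries summed to 471595 to 526316 FPKM, and 11952 to 12577 genes reached 1. The targeted genes followed the labels. Ldha was at 1774 in WT and 1711 in SO, with 154 in Ldha_KO and 2237 in Ldhb_KO, and Ldhb at 76.5, 139, 158 and 5.74 in that order. All 10 pluripotency markers stood at 30.2 or more in every library. Of the 10 fibroblast or feeder markers, Lum and Dcn were listed at 0 in every library and 4 or 5 reached 1. Their sum ran from 280 in Ldhb_KO to 359 in WT, mostly from Vim, Fn1 and Thy1, which stem cells also express. The 5 trophoblast markers summed to 5.96 to 11.4 and the 6 endoderm markers to 2.38 to 3.85. Low values step by what 1 read is worth, and the ratio of these steps was sharp between SO and WT, with a span of 0.0166% from the 10th to the 90th percentile. It was 0.553% for Ldha_KO with WT, 0.431% for Ldhb_KO with WT and 0.219% between the knockouts. Each span was taken inside a narrow window of fixed width where the ratios were densest, so its size was limited from above. The labels name no batch. Any difference in processing along this split cannot be told apart from the knockouts in their comparisons with WT.

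The 40 genes took 0.983% of the summed FPKM in WT and 1.14% in SO, with 1.15% in Ldha_KO and 1.46% in Ldhb_KO. All 40 reached 1 in at least 1 library, the filter that kept 13142 genes of the tables, and 36 reached 5. Fbp1 passed only through SO and Ldha_KO. In SO against WT, 1 of 40 genes was called higher, beside 2.69% of all genes kept, and 0 lower, beside 0.472%. In Ldha_KO against WT the counts were 2 higher (background 2.65%) and 0 lower (1.06%). In Ldhb_KO against WT they were 3 higher (3.36%) and 0 lower (1.09%). The median difference over the 40 genes was 0.10 in SO, 0.09 in Ldha_KO and 0.23 in Ldhb_KO, where the median over all genes kept was -0.04, -0.03 and -0.02. Most of the pathway thus lay within the 2-fold rule against WT. A count of 1 to 3 among 40 is near these background shares, and nothing particular to the pathway is read from it. Ldhb_KO held the highest value of 18 of the 40 genes, and of 28.3% of all genes kept. Above WT in each of the other libraries lay 19 of the 40 genes, beside 25.8% of all genes kept. Below WT in each lay 9, beside 31.2%.

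**Figure D1:**
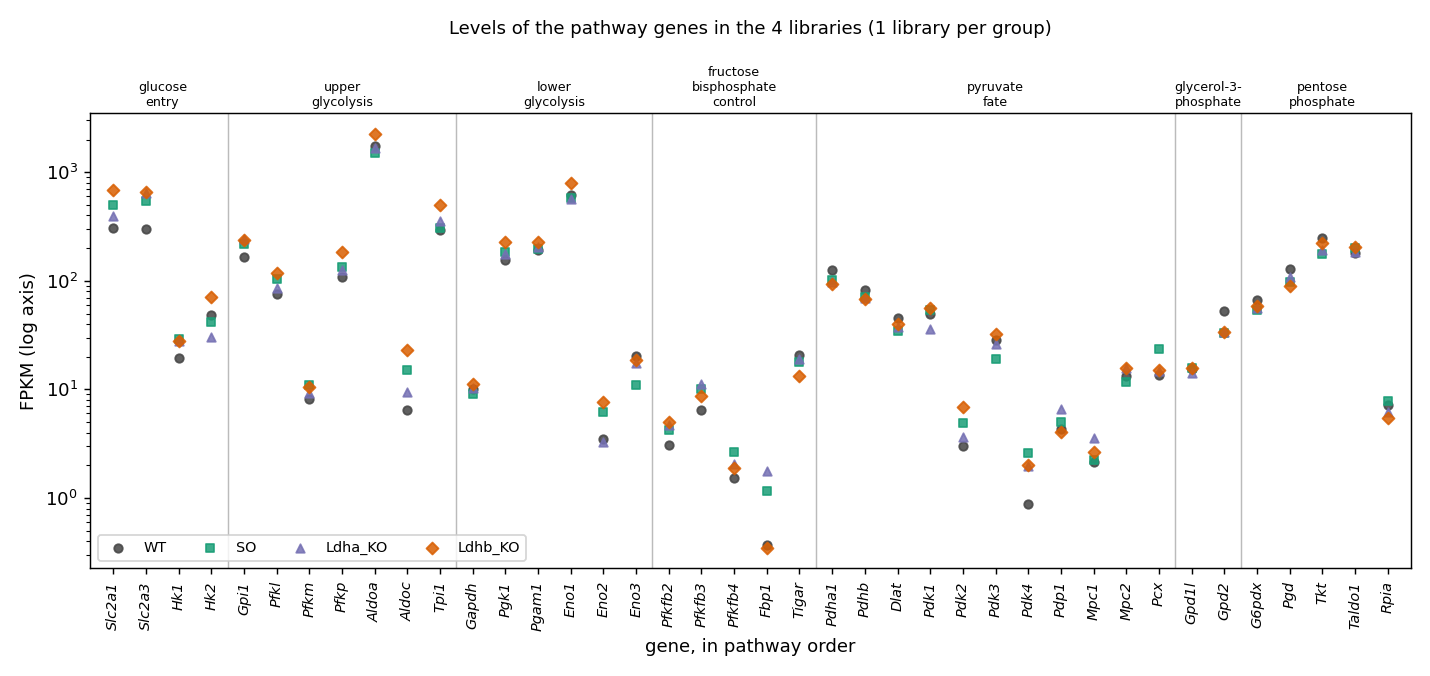
FPKM (log axis) of the 40 genes in pathway order, 1 point per library (WT circles, SO squares, Ldha_KO triangles, Ldhb_KO diamonds). Aldoa is the highest gene at 1519.8 to 2253, Fbp1 the lowest, and Gapdh stands at only 9.06 to 11.3.

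Glucose entry showed the greatest shift of the groups of steps by the ratio of summed level to WT. The 2 transporters and 2 hexokinases together stood at 678 in WT and 1116 in SO, with 1098 in Ldha_KO and 1452 in Ldhb_KO, which is 1.65, 1.62 and 2.14 times WT. Most of this sum was the transporters, at 610 in WT. The hexokinases alone summed to 68.3 in WT and 70.2 in SO, with 58.1 in Ldha_KO and 98.4 in Ldhb_KO. Slc2a1 (GLUT1), a basal glucose transporter, was at 307 in WT and 502 in SO, with 393 in Ldha_KO and 690.1 in Ldhb_KO. Its difference from WT was 0.71, 0.36 and 1.17, so it was called higher in Ldhb_KO and not in the other 2. Slc2a3 (GLUT3), a high-affinity transporter, was at 303 in WT and 544 in SO, with 646 in Ldha_KO and 663 in Ldhb_KO. It was called higher in both knockouts (1.09 and 1.13) and lay below the rule in SO (0.84). The transporters had near-equal levels in WT, where Slc2a1 made up 50.3% of their sum, with 48.0% in SO and 51.0% in Ldhb_KO. In Ldha_KO the share of Slc2a1 was 37.8%.

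Hexokinase makeup also differed between libraries. Hk1, the constitutive isoenzyme, was at 19.6 in WT and 28.9 in SO, with 27.8 in Ldha_KO and 28.1 in Ldhb_KO. Hk2, the inducible isoenzyme, was at 48.7, 41.4, 30.3 and 70.3 in the same order. Hk1 thus had its low value in WT, while Hk2 was low in Ldha_KO and high in Ldhb_KO. Hk2 over Hk1 was 2.48 in WT and 1.43 in SO, with 1.09 in Ldha_KO and 2.499 in Ldhb_KO. None of these hexokinase differences from WT reached 2-fold, the largest in size being -0.67 for Hk2 in Ldha_KO. Adpgk, an enzyme that phosphorylates glucose with ADP, outside the 40 genes, stood at 41.6 to 54.7, and with it in the sum the share of Hk2 falls, as in WT from 71.3% to 41.9%.

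Upstream sequence is shown for 4 of the 6 members called against WT or between the knockouts (Slc2a1, Hk2, Aldoc and Fbp1), and for Aldoa. Sequences are from RefSeq on GRCm38.p6, a build other than the mm9 of the deposited tables. Each is the longest stretch free of annotated exons within 250 bases before the gene's start, taken over its annotated starts. Capitals mark ACGTG or GCGTG on either strand (CACGT or CACGC on the other), the core of the hypoxia response element. Slc2a1 and the 2 matches of Hk2 are given first.
Slc2a1 (chr4:119108495-119108710, plus strand): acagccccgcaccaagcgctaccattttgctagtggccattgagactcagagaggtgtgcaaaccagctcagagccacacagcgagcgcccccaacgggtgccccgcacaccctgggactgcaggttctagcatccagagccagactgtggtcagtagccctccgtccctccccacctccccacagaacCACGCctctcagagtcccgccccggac
Hk2 (chr6:82774455-82774704, minus strand): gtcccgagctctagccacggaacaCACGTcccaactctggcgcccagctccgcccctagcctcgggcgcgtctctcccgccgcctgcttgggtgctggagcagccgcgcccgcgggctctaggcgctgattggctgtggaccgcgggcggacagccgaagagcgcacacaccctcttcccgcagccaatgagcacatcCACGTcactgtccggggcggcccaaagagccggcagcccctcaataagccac
The Hk2 matches start 226 and 52 bases before the gene's start. Slc2a1 has 1 match 61 bases before the start. Another begins at 36 bases and runs past the printed stretch, which stops before an annotated exon. Slc2a3 and Pdp1 have no promoter entry and are named only. Eno2, the other called member, has an entry but is not shown, and its promoter of 300 bases held 0 matches.

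Upper glycolysis, from glucose-6-phosphate isomerase to triose-phosphate isomerase, stood highest in Ldhb_KO. Its 7 genes summed to 2397 in WT and 2307 in SO, with 2484 in Ldha_KO and 3329 in Ldhb_KO, the last 1.39 times WT. The median difference from WT was 0.39 in SO, 0.21 in Ldha_KO and 0.64 in Ldhb_KO. Gpi1, the isomerase, was at 164 in WT and 219.6 in SO, with 243 in Ldha_KO and 236 in Ldhb_KO, the only gene of these steps with its top value in Ldha_KO. The phosphofructokinase subunits kept similar proportions. Pfkp, the platelet form, was at 109, 133, 126 and 185, and Pfkl, the liver form, at 75.01, 104, 85.2 and 117. Pfkm, the muscle form, was at 8.10 to 10.96. Pfkp made up 53.5% to 59.1% of the 3 in every library.

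Aldolase split by isoform. Aldoa, which carries nearly all aldolase transcript here, was at 1738 in WT and 1519.8 in SO, with 1659 in Ldha_KO and 2253 in Ldhb_KO. Aldoc, the brain isoform, was at 6.41, 15.1, 9.40 and 23.3. Its difference from WT was 1.12 in SO and 1.71 in Ldhb_KO, both called higher, and 0.49 in Ldha_KO. In Ldhb_KO this was 3.63-fold, the widest gap from WT on the log2(FPKM + 1) scale among the 40 genes. Aldoc still made up only 0.368% to 1.02% of aldolase transcript. Tpi1, triose-phosphate isomerase, was at 296 in WT and 304 in SO, with 352 in Ldha_KO and 504 in Ldhb_KO. Its value in Ldhb_KO stood apart from the other 3. The upstream stretches of the aldolase pair are shown to set the called isoform beside the abundant one.
Aldoc (chr11:78322823-78322967, plus strand): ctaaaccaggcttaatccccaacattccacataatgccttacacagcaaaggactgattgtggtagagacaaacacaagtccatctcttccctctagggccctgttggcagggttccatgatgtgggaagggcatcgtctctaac
Aldoa (chr7:126799255-126799504, minus strand): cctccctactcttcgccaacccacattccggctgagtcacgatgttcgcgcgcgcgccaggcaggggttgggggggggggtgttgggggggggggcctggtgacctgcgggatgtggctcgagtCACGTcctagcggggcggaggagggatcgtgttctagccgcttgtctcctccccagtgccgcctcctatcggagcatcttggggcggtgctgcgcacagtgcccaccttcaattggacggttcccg
Aldoa has 1 match 126 bases before this start. The printed Aldoc stretch has none, and the match 50 bases before its start lies in an annotated exon, which is not printed.

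Lower glycolysis had its 6 genes summed to 1001 in WT and 985 in SO, with 971 in Ldha_KO and 1294 in Ldhb_KO. The median difference was -0.04 in SO, -0.01 in Ldha_KO and 0.30 in Ldhb_KO. Pgk1, phosphoglycerate kinase of the first ATP-making step, was at 157 in WT and 184 in SO, with 175 in Ldha_KO and 229 in Ldhb_KO. Pgam1, the mutase, was at 194 to 229, a narrow range. Eno1, the highest of the member enolases, was at 616 in WT and 579 in SO, with 561 in Ldha_KO and 798 in Ldhb_KO. It made up 96.3% to 97.1% of the sum of Eno1, Eno2 and Eno3. That sum leaves out Eno1b, a near-identical copy of Eno1 listed at 630.2 in WT.

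The minor enolases did not follow Eno1. Eno2, the neuronal enolase, was at 3.46 in WT and 6.19 in SO, with 3.27 in Ldha_KO and 7.64 in Ldhb_KO. Its difference of 0.95 in Ldhb_KO lay just under the rule. It was 1.06 after scaling each library to WT by summed value, and 1.07 by the median ratio. Eno3, the muscle enolase, was at 20.2, 11.1, 17.5 and 18.8. It was low in SO alone, with a difference of -0.82. Gapdh, glyceraldehyde-3-phosphate dehydrogenase, was at 9.99, 9.06, 10.2 and 11.3, far below the neighbouring steps.

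The level of Gapdh cannot be read as that of its transcript. In the longest coding transcript of each gene in GENCODE M21, windows of 50 bases were looked up in all annotated pseudogenes and other coding genes. For Gapdh 82.5% of windows recurred elsewhere, with 215 pseudogenes sharing at least 1. The share was 72.2% for Eno1, 68.0% for Pgk1, 41.5% for Pgam1, 30.3% for Pdhb and 23.2% for Mpc1. Eno1b, a near-identical copy of Eno1, stood at 630.2 in WT and 612 in SO, with 601 in Ldha_KO and 841 in Ldhb_KO, close to Eno1 in each library. Of the 40 genes, 23 shared no window, among them both glucose transporters, both hexokinases, Aldoc, Fbp1, Pdk1, Pcx, Gpd2, Pgd and Tkt. A further 5 shared under 10%. The 12 with over 10% are uncertain, and the sources used here do not say how reads with several matches were counted. Part of the sharing is overlap of neighbouring genes, as Pfkp with Pitrm1 (17.1% of windows) and Pdha1 with Map3k15 (16.5%).

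**Figure D2:**
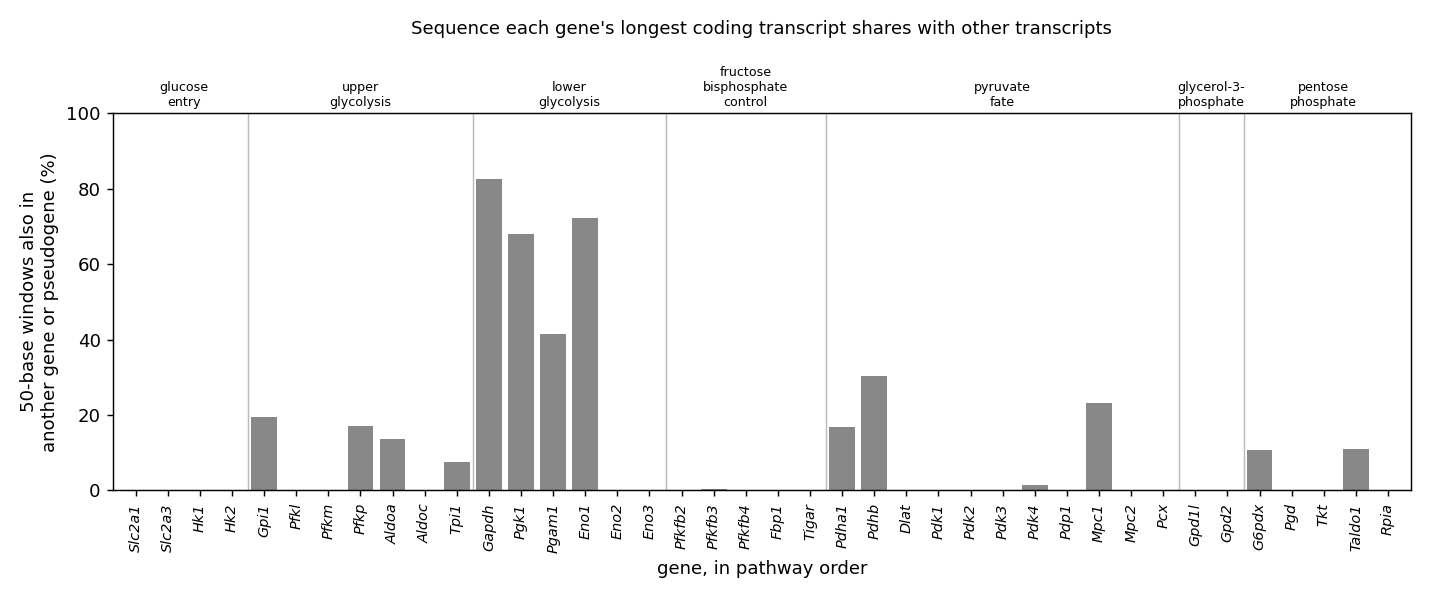
Percentage of 50-base windows of each gene's longest coding transcript that also occur in a pseudogene or another coding gene (bars, genes in pathway order). Gapdh, Eno1 and Pgk1 lie above 50%, and 23 of the 40 genes are at 0.

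Control of fructose bisphosphates showed low levels throughout. Pfkfb enzymes make or remove fructose 2,6-bisphosphate, the activator of phosphofructokinase. Pfkfb3, which mostly makes it, was at 6.40 in WT and 10.1 in SO, with 11.3 in Ldha_KO and 8.74 in Ldhb_KO. Pfkfb2 was at 3.06, 4.21, 4.67 and 5.01, and Pfkfb4 at 1.53, 2.65, 2.06 and 1.904. For these 3 enzymes each value outside WT lay above that of WT, with differences of 0.20 to 0.73 and none called. The same held for 25.8% of all genes kept, counted without regard to size. Pfkfb1, from the wider list and the most abundant of the family in WT, was at 7.39, 8.46, 7.03 and 9.15, below WT in Ldha_KO. Tigar, a p53 target that removes fructose 2,6-bisphosphate, was at 20.9 in WT and 17.8 in SO, with 19.0 in Ldha_KO and 13.3 in Ldhb_KO. Pfkfb3 over Tigar was 0.306 in WT and 0.571 in SO, with 0.597 in Ldha_KO and 0.656 in Ldhb_KO.

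Fbp1, the gluconeogenic fructose-1,6-bisphosphatase, split the libraries. It was at 0.366 in WT and 1.17 in SO, with 1.78 in Ldha_KO and 0.349 in Ldhb_KO. The difference of 1.03 in Ldha_KO was called higher, and the difference in SO was 0.67. Fbp2, the muscle form from the wider list, was at 4.27, 13.8, 13.2 and 3.60, with differences of 1.49 in SO, 1.44 in Ldha_KO and -0.20 in Ldhb_KO. Both phosphatases were therefore high in SO and Ldha_KO and near WT in Ldhb_KO. The Fbp1 values are low, and the number of reads behind them is unknown. Its upstream stretch holds no match.
Fbp1 (chr13:62888283-62888532, minus strand): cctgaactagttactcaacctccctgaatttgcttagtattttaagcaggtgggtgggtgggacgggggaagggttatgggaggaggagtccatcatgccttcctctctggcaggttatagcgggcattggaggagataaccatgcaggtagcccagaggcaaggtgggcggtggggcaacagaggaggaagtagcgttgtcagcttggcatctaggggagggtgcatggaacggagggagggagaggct

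**Figure D3:**
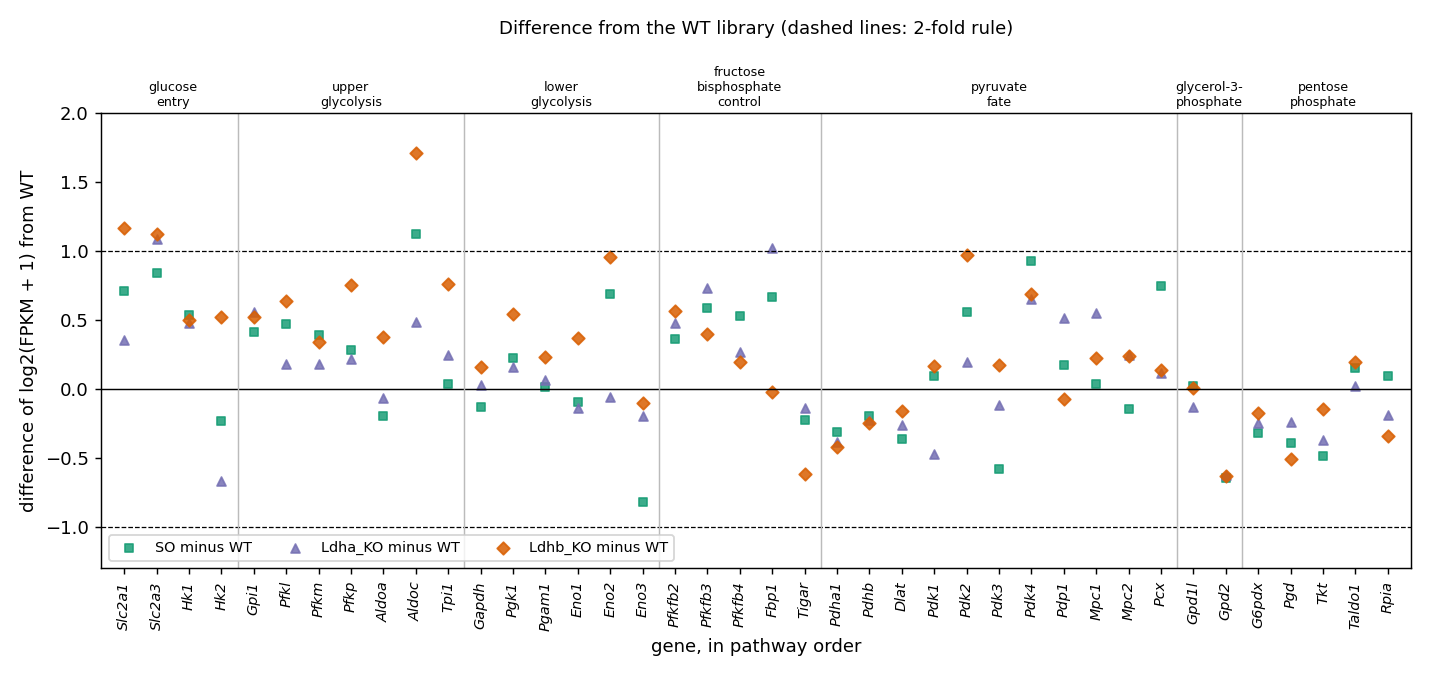
Difference of log2(FPKM + 1) from the WT library for the 40 genes in pathway order, for SO (squares), Ldha_KO (triangles) and Ldhb_KO (diamonds); dashed lines mark the 2-fold rule. Points past the rule are Aldoc (SO 1.12, Ldhb_KO 1.71), Slc2a1 (Ldhb_KO 1.17), Slc2a3 (1.09 and 1.13 in the knockouts) and Fbp1 (Ldha_KO 1.03).

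Of the pyruvate dehydrogenase complex, the 3 members Pdha1, Pdhb and Dlat had lower values than WT in each of the other libraries, without reaching 2-fold. So did 31.2% of all genes kept, counted without regard to size. Pdha1, the catalytic alpha subunit that the kinases phosphorylate, was at 126 in WT and 102 in SO, with 96.7 in Ldha_KO and 94.2 in Ldhb_KO. Pdhb, the beta subunit, was at 81.6, 71.1, 69.6 and 68.5, and Dlat, the acetyltransferase core, at 45.1, 34.9, 37.5 and 40.3. Differences of these 3 ran from -0.42 to -0.16. Each kept its sign with the libraries rescaled either way, but several came close to 0, as Pdhb in SO (-0.20 to -0.04 by summed value) and Dlat in Ldhb_KO (-0.16 to -0.04). The complex's other subunits, from the wider list, did not all share this order. Pdhx, which binds the shared subunit Dld, was at 26.4, 21.1, 18.4 and 17.4, while Dld was at 58.0, 49.3, 63.9 and 50.6 and thus highest in Ldha_KO. Rescaling to the summed value of WT moved the median of all genes kept from -0.04 to 0.10 in SO, from -0.03 to 0.09 in Ldha_KO and from -0.02 to 0.08 in Ldhb_KO.

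Pyruvate dehydrogenase kinases, which switch the complex off, differed in makeup. Pdk1, a hypoxia target, was at 49.8 in WT and 53.4 in SO, with 35.7 in Ldha_KO and 56.2 in Ldhb_KO. Pdk3 was at 28.7, 18.9, 26.5 and 32.6. Pdk1 was thus low in Ldha_KO and Pdk3 in SO. Pdk2 was at 3.03, 4.92, 3.61 and 6.90, and its difference of 0.97 in Ldhb_KO lay just under the rule, reaching 1.08 with either rescaling. Pdk4, the isoform linked to fasting and fatty acid use, was at 0.882, 2.57, 1.96 and 2.03. Its difference in SO was 0.93, and 1.04 with the libraries rescaled to summed values, which passes the rule. The 4 kinases summed to 82.5 in WT and 79.8 in SO, with 67.7 in Ldha_KO and 97.7 in Ldhb_KO. Against Pdha1, Pdhb and Dlat summed this was a ratio of 0.326, 0.385, 0.332 and 0.481. Pdp1, the phosphatase that reactivates the complex, was at 4.33, 5.01, 6.64 and 4.07.

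**Figure D4:**
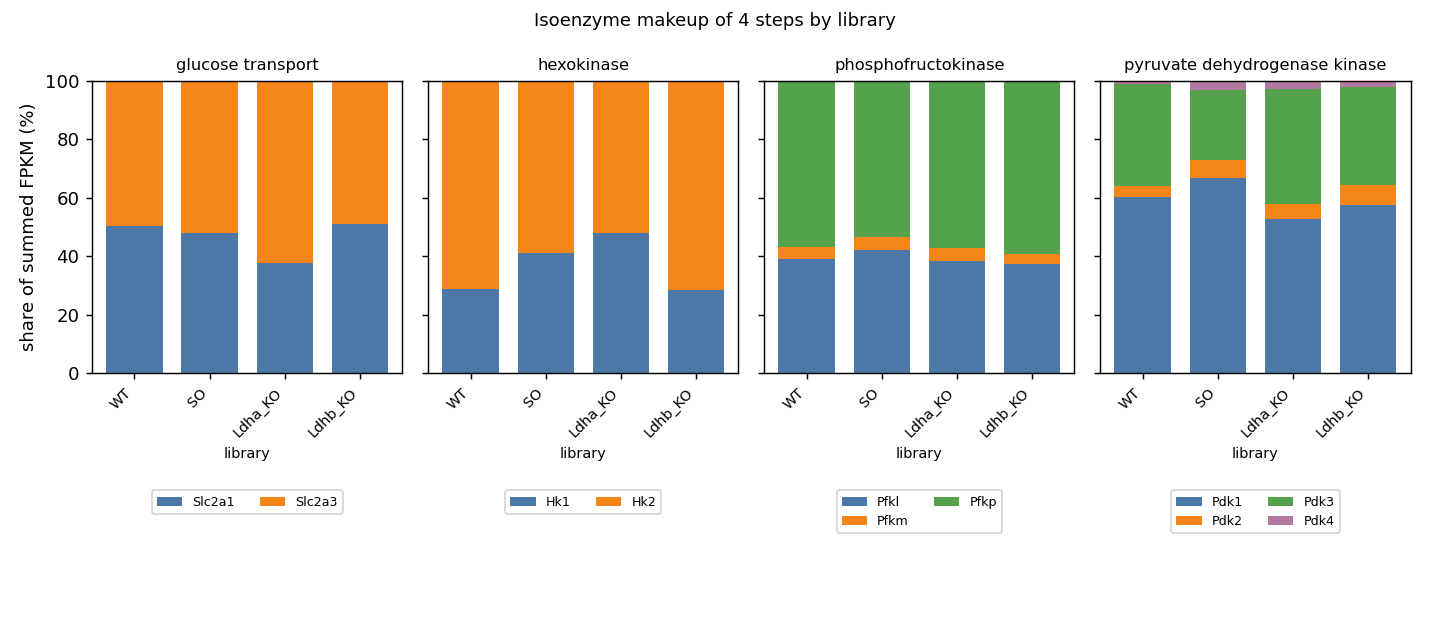
Share of each isoenzyme in the summed FPKM of its step (stacked bars, %) for glucose transport, hexokinase, phosphofructokinase and pyruvate dehydrogenase kinase, by library. The Slc2a1 share is 37.8% in Ldha_KO against 48.0% to 51.0% elsewhere, the Hk2 share is 52.1% in Ldha_KO and 71.4% in Ldhb_KO, and phosphofructokinase keeps its proportions.

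Entry of pyruvate into mitochondria and its carboxylation were measured by 3 genes. Mpc1 and Mpc2 form the mitochondrial pyruvate carrier as a pair. Mpc1 was at 2.14 in WT and 2.23 in SO, with 3.60 in Ldha_KO and 2.67 in Ldhb_KO, and Mpc2 at 13.2, 11.8, 15.9 and 15.7. Mpc1 was highest in Ldha_KO (0.55), while Mpc2 was alike in both knockouts (0.25 and 0.24). Pcx, pyruvate carboxylase, was at 13.7 in WT and 23.7 in SO, with 14.9 in Ldha_KO and 15.1 in Ldhb_KO. The SO library stood alone, with a difference of 0.75. Pcx over Pdha1 was 0.108 in WT and 0.233 in SO, with 0.154 in Ldha_KO and 0.161 in Ldhb_KO.

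Gpd2, the mitochondrial glycerol-3-phosphate dehydrogenase of a shuttle that oxidises cytosolic NADH, was at 52.3 in WT. It was at 33.2 in SO, 33.7 in Ldha_KO and 33.5 in Ldhb_KO, or 0.634, 0.644 and 0.641 times WT. The differences were -0.64, -0.62 and -0.63, below the rule in each. The other 3 libraries stood within 33.2 to 33.7, and their distance from WT rests on 1 WT library. Of all genes kept, 31.2% lay below WT in each of the other libraries. Gpd1l, related to the cytosolic enzyme, was at 14.1 to 15.8 with no such gap.

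Pentose phosphate genes were mostly lower than in WT. G6pdx, the first and rate-limiting enzyme, was at 66.8 in WT and 53.4 in SO, with 56.2 in Ldha_KO and 59.0 in Ldhb_KO. Pgd, the second NADPH-making enzyme, was at 128, 97.4, 109 and 89.9. Both were at their highest in WT, as were 31.2% of all genes kept, with differences of -0.51 to -0.18 for the pair. Of the non-oxidative branch, Tkt, transketolase, was at 248.9, 178, 192 and 225. Taldo1, transaldolase, was at 180, 200.1, 183 and 206, and Rpia, which makes ribose 5-phosphate, at 7.18, 7.75, 6.18 and 5.47. The oxidative pair over the 3 non-oxidative genes was 0.447 in WT and 0.391 in SO, with 0.432 in Ldha_KO and 0.341 in Ldhb_KO. No pentose phosphate gene was called, and the differences of G6pdx, Pgd and Tkt kept their sign with the libraries rescaled. In Ldhb_KO those of Tkt and G6pdx came close to 0, from -0.15 to -0.03 and from -0.18 to -0.06 by summed value. Pgls, the lactonase between G6pdx and Pgd, was at 99.2, 68.5, 73.6 and 119.

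Ldha_KO and Ldhb_KO were then set against each other, a comparison that does not involve WT. Of the 40 genes, 1 was called higher in Ldha_KO (background 1.67%) and 3 lower (1.54%). Below 0 lay 27 of the 40, beside 6853 of the 13142 genes kept. The median difference was -0.10, and -0.02 over all genes kept. Called lower in Ldha_KO were Aldoc (-1.22), Hk2 (-1.19) and Eno2 (-1.02), and Fbp1 was called higher (1.05). All 4 genes of glucose entry and all 6 of lower glycolysis were below 0, although Slc2a3 (-0.04) and Hk1 (-0.02) barely so, and Hk1 turned above 0 with one rescaling. Upper glycolysis had a median of -0.46, with Gpi1 (0.04) above 0. The genes above 0 included Pdp1 (0.59), Tigar (0.48), Pfkfb3 (0.34), Mpc1 (0.33) and Pgd (0.27). Pyruvate fate had a median of -0.02, and its spread ran from Pdk2 (-0.78) to Pdp1.

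**Figure D5:**
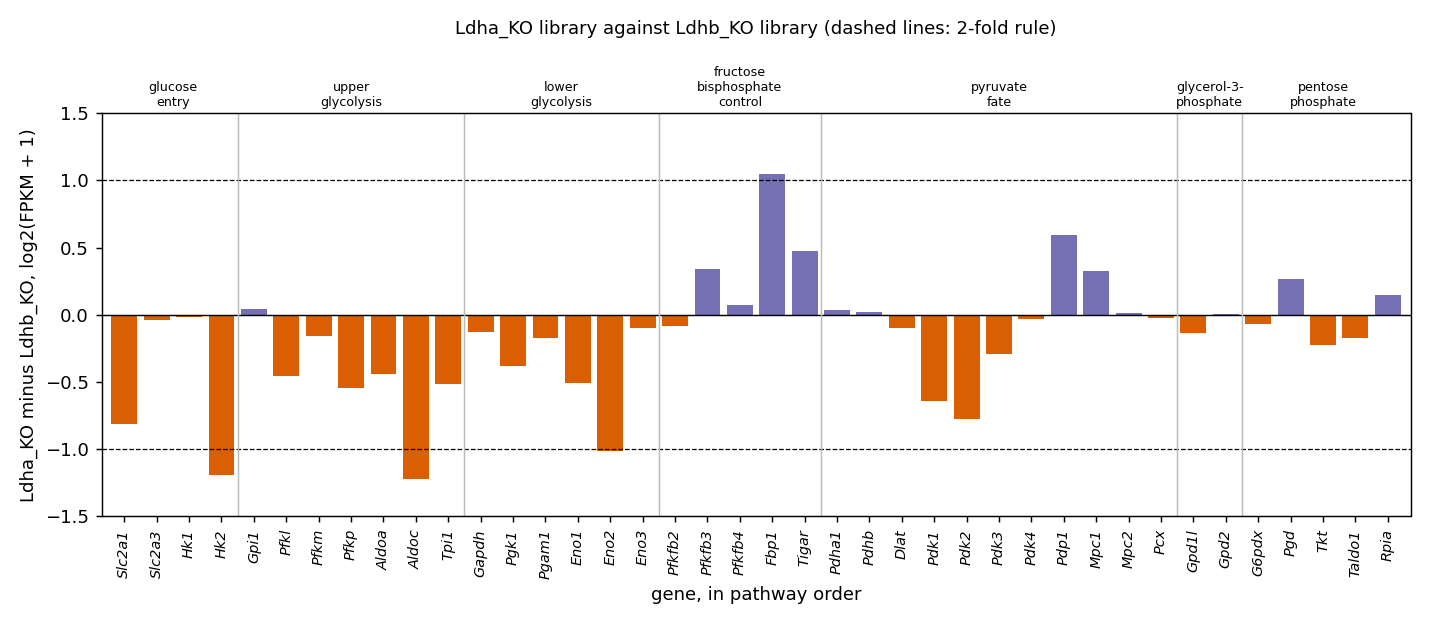
Difference of log2(FPKM + 1) between the Ldha_KO and Ldhb_KO libraries for the 40 genes in pathway order (bars; above 0 is higher in Ldha_KO, dashed lines the 2-fold rule). Aldoc, Hk2 and Eno2 pass the rule below 0 and Fbp1 above it.

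A wider list held 64 genes around the pathway, of which 51 reached 1 in at least 1 library. In SO 3 of the 51 were called higher (background 2.69%) and 0 lower (0.472%). In Ldha_KO 7 were higher (2.65%) and 3 lower (1.06%), with Ldhb among the higher and Ldha among the lower. In Ldhb_KO 6 were higher (3.36%) and 3 lower (1.09%), with Ldhb among the lower. Pgm1, phosphoglucomutase, which links glucose 6-phosphate to glycogen, was at 28.5 in WT and 54.2 in SO, with 76.1 in Ldha_KO and 101 in Ldhb_KO. Pygl, a glycogen phosphorylase, was at 0.753, 4.93, 4.16 and 6.36, and was called higher in each comparison with WT. Pgam2, the muscle mutase, was at 3.13, 11.1, 9.49 and 4.97. Pgm1 was called higher in both knockouts (1.39 and 1.80) and Pgam2 in SO and Ldha_KO (1.55 and 1.35). Pkm, pyruvate kinase, was at 2319, 2223, 2100.5 and 2497, with no call.

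Other genes of this list were called in 1 or both knockouts, or between them. Gpt2, the mitochondrial alanine transaminase, was at 18.0 in WT and 11.7 in SO, with 10.8 in Ldha_KO and 37.8 in Ldhb_KO. Tktl2 was at 0.545, 1.04, 2.69 and 0.437, and Ldhc was at 1.24, 2.58, 4.601 and 3.11. Both were called higher in Ldha_KO, at low levels. Of the regulators, Egln1 and Egln3, oxygen sensors that mark the hypoxia-inducible factors for removal and are themselves their targets, were called higher in Ldhb_KO (1.21 and 1.67). Epas1, which encodes a hypoxia-inducible factor subunit, was called lower there (-1.13). Myc, an activator of glycolytic genes, was at 66.5, 40.5, 12.7 and 14.8, and Mycn, its relative, at 64.5, 43.8, 29.8 and 67.0. Myc was called lower in both knockouts and Mycn in Ldha_KO. Txnip, a glucose-responsive brake on glucose uptake, was at 94.4, 161, 83.9 and 183, and was called only between the knockouts (-1.12).

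Of 15 hypoxia genes outside glycolysis, the count called higher was 7 in SO, 4 in Ldha_KO and 9 in Ldhb_KO. The count lower was 0 in each, though 1, 4 and 2 of the 15 lay below WT. Kdm3a was below WT in each (-0.26, -0.12 and -0.68). The list was chosen with earlier results of these data known. Over all genes kept, 2.69%, 2.65% and 3.36% were called higher. The medians of the 15 genes were 0.70, 0.60 and 1.58, where those of all genes kept were -0.04, -0.03 and -0.02. The 15 genes summed to 368 in WT and 596 in SO, with 483 in Ldha_KO and 850.1 in Ldhb_KO. Their part in the glycolytic values was not tested. In promoters of 300 bases (250 before the start and 50 after), 38 of the 40 genes had 56 RefSeq entries. Some genes had several entries, which can overlap, as for Aldoa, and each entry was counted. ACGTG or GCGTG on either strand was found in 41 of these 56 (73.2%) and in 43.8% of 32851 promoters of all genes. ACGTG alone was found in 22 (39.3%) and in 19.6% of all. CACGTG, the E-box, which contains ACGTG, was found in 6 (10.7%) and in 7.15% of all. By gene, ACGTG or GCGTG was found in 32 of the 38, and no share by gene was computed over all genes. Member promoters were richer in G and C (median 60.8%, against 52.7%), and its part in these shares was not tested.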

How the data were processed

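Polyadenylated RNA from 4 mouse embryonic stem cell cultures was sequenced, 1 library per group, with groups taken from the treatment label. The submitters' processing notes name Bowtie2 2.3.4.3, SAMtools 1.9, HTSeq 0.11.2, edgeR 3.26.8 and the build mm9, without roles. No gene annotation is named in the sources used here. The deposited values were read as FPKM made by the authors, from the values alone: they are not whole numbers and sum differently in each library. RPKM cannot be told apart from FPKM. No source used here states the number of reads. From the steps of low values the depth used for scaling was 1.05, 0.995 and 1.05 times WT in SO, Ldha_KO and Ldhb_KO. It equals depth in reads only if no further scaling factor was applied, which the sources used here do not state. Without absolute depth no counting interval was computed.

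Differences of log2(FPKM + 1), with a pseudocount of 1, were taken over genes with at least 1 FPKM in at least 1 library, with Python 3.11.15, NumPy 2.4.6 and pandas 2.3.3. Alternatives were a pseudocount of 0.1, no filter, a filter of 5 and rescaling by the summed value or the median ratio to WT. Shared sequence was counted in GENCODE M21 transcripts, and promoters came from RefSeq (GRCm38.p6), 38 of 40 genes matched by symbol. The members and lists were chosen with earlier results of these data known. All 40 members are named. Ldha, Ldhb and Pkm are named too, with genes of the wider list called in any comparison, except 1 that is not reported here. Adpgk, Pgls, Pdhx, Dld, Pfkfb1, Eno1b, Pitrm1 and Map3k15 were chosen after their values were seen.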

Additional observations from a re-analysis of the deposited data

How the results depend on the processing

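Each of the 4 libraries is alone in its group, so no replicate could be left out. No paired analysis was possible because each group has 1 library. The count of members called higher was 3 in SO against WT with a pseudocount of 0.1 and 2 with either rescaling, against 1. In Ldhb_KO against WT it was 6 with that pseudocount and 5 with either rescaling, against 3. In Ldha_KO against WT, Pdk4 also passed the rule with the pseudocount of 0.1, at 1.07. With a filter of 5 the count was 1 in Ldha_KO against WT, against 2, since Fbp1 then leaves. For the same reason it was 0 in Ldha_KO against Ldhb_KO, against 1. The pseudocount of 0.1 also raised the share of all genes called higher, to 6.15% in SO, 6.60% in Ldha_KO and 8.68% in Ldhb_KO. Rescaling raised that share too. It was 3.69% (summed value of WT) and 3.27% (median ratio) in SO, and 4.79% and 4.85% in Ldhb_KO. The median difference became 0.25 (summed value of WT) and 0.20 (median ratio) in SO, 0.33 and 0.34 in Ldhb_KO, and 0.23 with the summed value in Ldha_KO. Less the median of all genes kept, it stood at 0.13 in SO, 0.12 in Ldha_KO and 0.25 in Ldhb_KO as deposited, and at 0.14, 0.14 and 0.25 with the summed value of WT. These moves follow from the rescaling itself. With a rescaling, signs turned for Gapdh and Eno1 in SO, for Aldoa, Eno1, Eno2 and Pdk3 in Ldha_KO, and for Eno3, Fbp1 and Pdp1 in Ldhb_KO. Between the knockouts they turned for Hk1, Pdhb, Mpc2 and Gpd2. None of these was a called difference. Summed with the wider list, the Hk2 share of its step was 41.9% in WT, 32.9% in SO and 28.8% in Ldha_KO, through Adpgk. The Pfkfb3 share was 34.8% in WT and 35.2% in Ldhb_KO, through Pfkfb1. The depth in reads is unknown, so the precision of values near 1 FPKM, as of Fbp1 and Pdk4, cannot be given.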
